A study of Mus musculus with 4 samples.

Results

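The Sox genes of neural crest lineages considered here are Sox10, Sox9, Sox2, Sox5, Sox6, Sox4 and Sox11. They were chosen by name, and every probe set that the platform annotation gives to exactly 1 of these 7 symbols was taken, which made 32 of the 45101 probe sets on the array and 7 of the 18193 genes that it names with 1 symbol. No probe set annotated to several genes included any of the 7. The cells were mouse skin melanocytes of Balb/c origin kept in culture. Non-pigmented cells carry a homozygous point mutation in Tyr, whose product tyrosinase catalyses the first step towards melanin, and pigmented cells are labelled wild type because that mutation was corrected. Both lines were grown in serum-containing medium with 2-mercaptoethanol and the phorbol ester TPA, and total RNA of each line was hybridised to 2 Affymetrix arrays. The labels do not say whether either line was a single clone, or whether the arrays of a line came from separate cultures, so p-values and errors below cover the spread among these 4 samples alone, and that spread may be technical.

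Sox proteins carry an HMG box, a DNA-binding domain that sits in the minor groove and bends the helix, and they usually act with a partner factor. Sox10 and Sox9 belong to the SoxE group, Sox2 to SoxB1, Sox5 and Sox6 to SoxD, and Sox4 and Sox11 to SoxC. Sox10 is required for neural crest survival and for both the melanocyte and the glial lineage, where it turns on Mitf in the one and myelin genes in the other. Sox2 marks stem cells and immature Schwann cells, Sox9 with Sox5 and Sox6 drives the cartilage collagen programme, and the SoxC proteins are best known from progenitors and newborn neurons.

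On the mouse reference GRCm38.p6 the members lie apart from each other. Sox2 (Entrez gene 20674) is at chr3:34649995-34652461, a short gene that sits inside the interval of the noncoding gene Sox2ot, and Sox6 (20679) spans 569.9 kb at chr7:115470872-116040776. Sox10 (20665) is at chr15:79154913-79164490, Sox9 (20682) at chr11:112782210-112787757 and Sox5 (20678) at chr6:143828425-144782287. Sox4 (20677) is at chr13:28948919-28953699 and Sox11 (20666) at chr12:27334268-27342718. The RefSeq promoter table held 10 windows for 5 of the 7 genes (Sox2, Sox4, Sox5, Sox6 and Sox11), each from 250 bases before to 50 after a transcript start. Sox10 and Sox9 were not in it. The windows were searched on both strands for AACAAAG and AACAATG, 2 forms of the sequence that Sox proteins bind, which cannot both match at 1 position. AACAAAG was in 5.85% and AACAATG in 3.78% of the 32851 windows of the table. In all 4 windows held one, all of them among the 6 windows of Sox6, against 9.36% of all windows that held either. A match describes letters in a window only. The 250 bases before the start are shown for Sox2, the member with the largest difference between the lines, and for a start of Sox6, the member whose windows held the matches, with AACAAAG in capitals (it begins 114 bases before the start). The Sox2 run is chr3:34649745-34649994 on the plus strand and the Sox6 run is chr7:116038745-116038994 on the minus strand.
Sox2: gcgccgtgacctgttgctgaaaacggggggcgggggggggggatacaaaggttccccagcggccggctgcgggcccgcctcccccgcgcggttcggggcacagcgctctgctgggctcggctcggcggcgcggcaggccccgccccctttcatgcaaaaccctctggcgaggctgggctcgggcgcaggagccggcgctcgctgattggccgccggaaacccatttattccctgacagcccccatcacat
Sox6: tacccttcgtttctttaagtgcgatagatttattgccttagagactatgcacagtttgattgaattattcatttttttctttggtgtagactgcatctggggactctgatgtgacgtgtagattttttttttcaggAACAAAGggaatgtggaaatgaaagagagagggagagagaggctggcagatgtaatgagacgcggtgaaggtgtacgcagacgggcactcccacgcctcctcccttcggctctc

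The 4 arrays differed in a way that crosses the lines. The Gapdh control had a 3′ to 5′ signal ratio of 0.903 (replicate 1) and 20.2 (replicate 2) in the non-pigmented line, against 0.864 (replicate 1) and 16.8 (replicate 2) in the pigmented line. Replicate 2 of either line is called an array with low 5′ signal below, and replicate 1 of either line an array with even 5′ signal. The labels do not give the origin of this split, and it was not tested. Tyr checked the labels in part, with signals of 214 and 67.2 in non-pigmented arrays and 17306 and 11698 in pigmented arrays. The sum over 10 melanocyte markers was 7430 and 18435 in non-pigmented arrays and 139847 and 127079 in pigmented arrays, and the non-pigmented cells kept clear signals of Pmel (1075 and 811) and Mlana (1656 and 2977). Markers of other lineages were not all low. Over 6 Schwann cell markers, 5 of them tested and 3 called higher, the summed signal was 20445 and 23675 in non-pigmented arrays and 2280 and 3320 in pigmented arrays. Over 6 chondrocyte markers, 4 of them tested and 3 called higher, it was 12854 and 13692 in non-pigmented arrays and 371 and 451 in pigmented arrays. Both sums were above the melanocyte sum on non-pigmented replicate 1, but signals of different probe sets do not rank transcript amounts or cell types. The part of these Schwann cell and chondrocyte markers in the results below was not tested. The sums of fibroblast markers (4 of 8 tested, 0 called) were 843 and 971 in non-pigmented arrays and 1635 and 1519 in pigmented arrays, and those of keratinocyte markers (2 of 6 tested, Krt10 higher in the non-pigmented line) were 553 and 546 in non-pigmented arrays and 415 and 474 in pigmented arrays. Krt10 passed the filter described below only through the non-pigmented arrays. Of 5 neuron, 4 endothelial and 5 immune markers, 1, 1 and 2 were tested and 0 were called by limma (0 at an unadjusted p under 0.05). No marker was at 0 on any array.

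Values below are scaled signals as deposited, and differences are log2(signal + 16), non-pigmented minus pigmented, ± the standard error from limma. A gene was represented by its brightest probe set and called at a Benjamini-Hochberg adjusted p under 0.05 over the 12558 genes tested. Genes or probe sets with a mean log2 value under 6.4 (a signal of 70.7) were left out as dim. Of the 7 Sox genes 6 passed that filter, and Sox11 did not. Sox2 was called, higher in the non-pigmented line, where 3.36% of all tested genes were called in either direction and 2.03% in that direction. Sox2 passed the filter only through the non-pigmented arrays, and with no filter it was not called (limma adjusted p of 0.0721). The other 5 tested Sox genes did not pass. In a second fit, in which each of 27022 probe sets had its own test, 20 of the 32 Sox probe sets were tested and 0 were called, against 1.49% of all probe sets. In that limma fit 2 of the 20 had an unadjusted p under 0.05, those of Sox2 and 1 of Sox6.

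**Figure D1:**
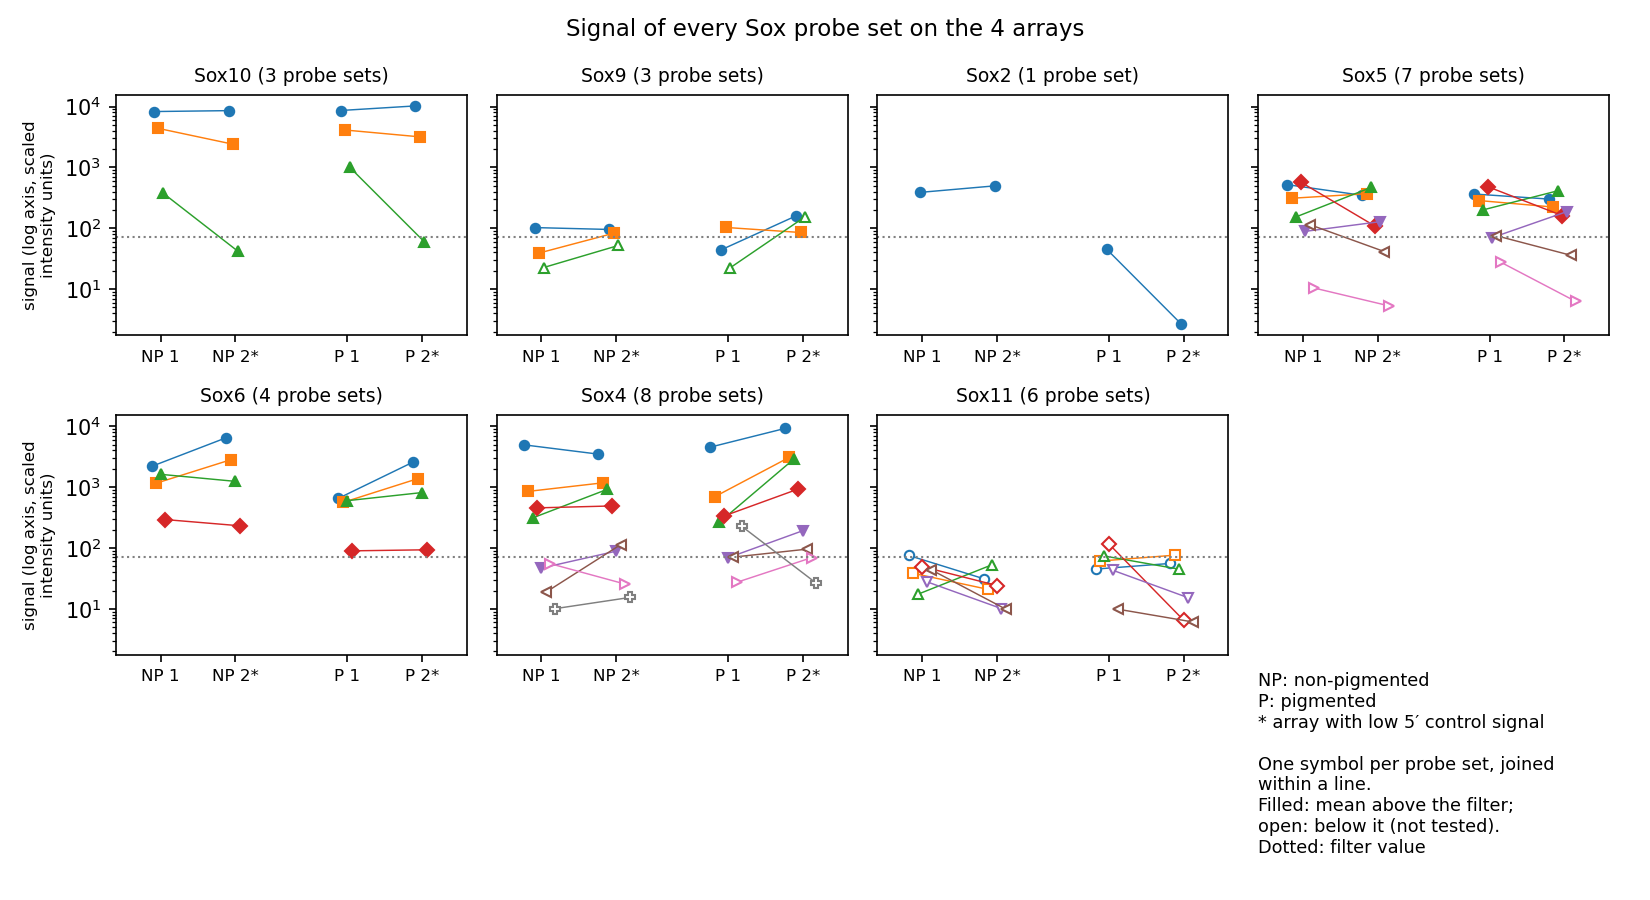
Signal of all 32 Sox probe sets (vertical log axis, scaled intensity units) on the non-pigmented (NP) and pigmented (P) arrays, with 1 symbol per probe set and an asterisk on the arrays with low 5′ signal. Sox10 stays between 8268 and 10232 in its brightest probe set, Sox2 reads 388 and 497 on the NP arrays against 45.2 and 2.65 on the P arrays, and the 6 Sox11 probe sets lie near or under the dotted filter value of 70.7.

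Sox10 is the SoxE factor on which both the melanocyte and the glial lineage depend. Its brightest probe set, 1451689_a_at, read 8268 and 8558 in non-pigmented arrays and 8602 and 10232 in pigmented arrays. The lines did not overlap, with the non-pigmented arrays lower, but such separation was common among all tested genes (43.9%), and the difference was 0.09 under median centring. The log2 difference was -0.16 ± 0.30 (limma adjusted p of 0.880), with a 95% interval of -0.89 to 0.57. Differences within those bounds are compatible with these values, and the bounds are not a limit of detection. The second probe set, 1424985_a_at, read 4366 and 2400 in non-pigmented arrays and 4111 and 3175 in pigmented arrays, a difference of -0.16 ± 0.45.

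The third Sox10 probe set, 1425369_a_at, separated by 5′ signal and not by line. Non-pigmented replicate 1 read 380 and replicate 2 read 42.3, while pigmented replicate 1 read 1009 and replicate 2 read 59.9. Both arrays with even 5′ signal were high and both with low 5′ signal were low. Fitted beside the line, the difference of arrays with low minus those with even 5′ signal was -3.26 ± 0.45 on the log2 scale (unadjusted p of 0.000421, limma adjusted p of 0.0570). The line difference of this probe set was -0.88 ± 1.42, with a 95% interval of -4.35 to 2.60, so it carries little information on the line.

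Sox9, the SoxE factor of cartilage and of the early neural crest, was close to the filter in both lines. Probe set 1451538_at read 103 and 95.5 in non-pigmented arrays and 44.5 and 160 in pigmented arrays, a difference of 0.16 ± 0.61 (limma adjusted p of 0.948, 95% interval -1.33 to 1.65). The pigmented arrays lay on either side of the non-pigmented ones. Probe set 1433889_at read 39.2 and 83.0 in non-pigmented arrays and 103 and 85.2 in pigmented arrays, a difference of -0.57 ± 0.54. The 2 tested probe sets thus had opposite signs, the third was too dim to be tested, and without pigmented replicate 1 the difference of the first was -0.61. A direction of Sox9 between the lines could not be read from these arrays.

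Sox2, the SoxB1 factor of stem cells and immature Schwann cells, has a single probe set on the array, 1416967_at. It read 388 and 497 in non-pigmented arrays and 45.2 and 2.65 in pigmented arrays. Both non-pigmented arrays were clearly above the filter signal of 70.7 and both pigmented arrays were below it, so the groups did not overlap and the pigmented level itself was not resolved. The lines did not overlap in 43.9% of all tested genes. The mean log2 value was 8.83 ± 0.24 in the non-pigmented line and 5.08 ± 1.21 in the pigmented line (SD, n = 2 each). With the filter signal in place of the pigmented level, the non-pigmented mean of Sox2 was 5.25-fold higher on the log2(signal + 16) scale. That value makes no allowance for the spread of the non-pigmented arrays. The fitted log2 difference, which depends on pigmented signals below the filter, was 3.75 ± 0.65, with a limma adjusted p of 0.0381 and a 95% interval of 2.17 to 5.34. As a bulk measurement it cannot tell fewer Sox2-expressing cells from less Sox2 RNA per cell.

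Because the groups did not overlap, the Sox2 difference was bound to be positive in every pairing of the arrays, and only its size could vary. Each pairing uses a pigmented signal below the filter. The difference was 4.44 and 3.07 within the 2 dates in the array titles, and it was 2.72 between the arrays with even 5′ signal and 4.78 between those with low 5′ signal. It was 5.08 with a pseudocount of 1 and 2.56 with a pseudocount of 64. The limma adjusted p was 0.0101 with the date blocked, where 3.12% of all genes were called (1.96% higher and 1.16% lower), and 0.0293 when the 5′ signal pair was blocked. The call was lost without non-pigmented replicate 1 (adjusted p of 0.0748) or 2 (0.112), with no filter on dim genes and with a pseudocount of 1 (0.104). In the fit over single probe sets the adjusted p was 0.0745, and 0.0442 and 0.0334 with the date or the 5′ signal pair as a block, where 1.40% and 4.64% of all probe sets were called.

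The log2 signal of Sox2 minus that of Sox10 within an array, whose absolute size has no meaning between 2 probe sets, was -4.36 and -4.06 in non-pigmented arrays and -7.14 and -9.10 in pigmented arrays, a shift of 3.91. An exact two-sided permutation test over the 4 arrays gave a p of 0.33, the smallest this design allows, so this test cannot show a difference, and the pigmented values rest on Sox2 signals below the filter. The same quantity for Sox9 minus Sox10 was -6.13 and -6.26 in non-pigmented arrays and -7.16 and -5.86 in pigmented arrays, a shift of 0.32 with an exact permutation p of 1.0.

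The 3 genes whose profile over the 4 arrays was most like that of Sox2, by the root mean square difference of log2 values centred on their own mean, were Rhoj (0.12), Klk8 (0.17) and Sema3c (0.20). In all, 47 tested genes lay within 0.5 of Sox2. Rhoj read 3943 and 5140 in non-pigmented arrays and 609 and 211 in pigmented arrays. Sema3c, a secreted semaphorin, read 3128 and 4077 in non-pigmented arrays and 376 and 159 in pigmented arrays. Klk8, a secreted serine protease, read 534 and 931 in non-pigmented arrays and 90.6 and 15.8 in pigmented arrays. Likeness to Sox2 on these arrays chose the 3 genes, so their differences follow from the choice, and the Sox2 profile includes pigmented signals below the filter.

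**Figure D2:**
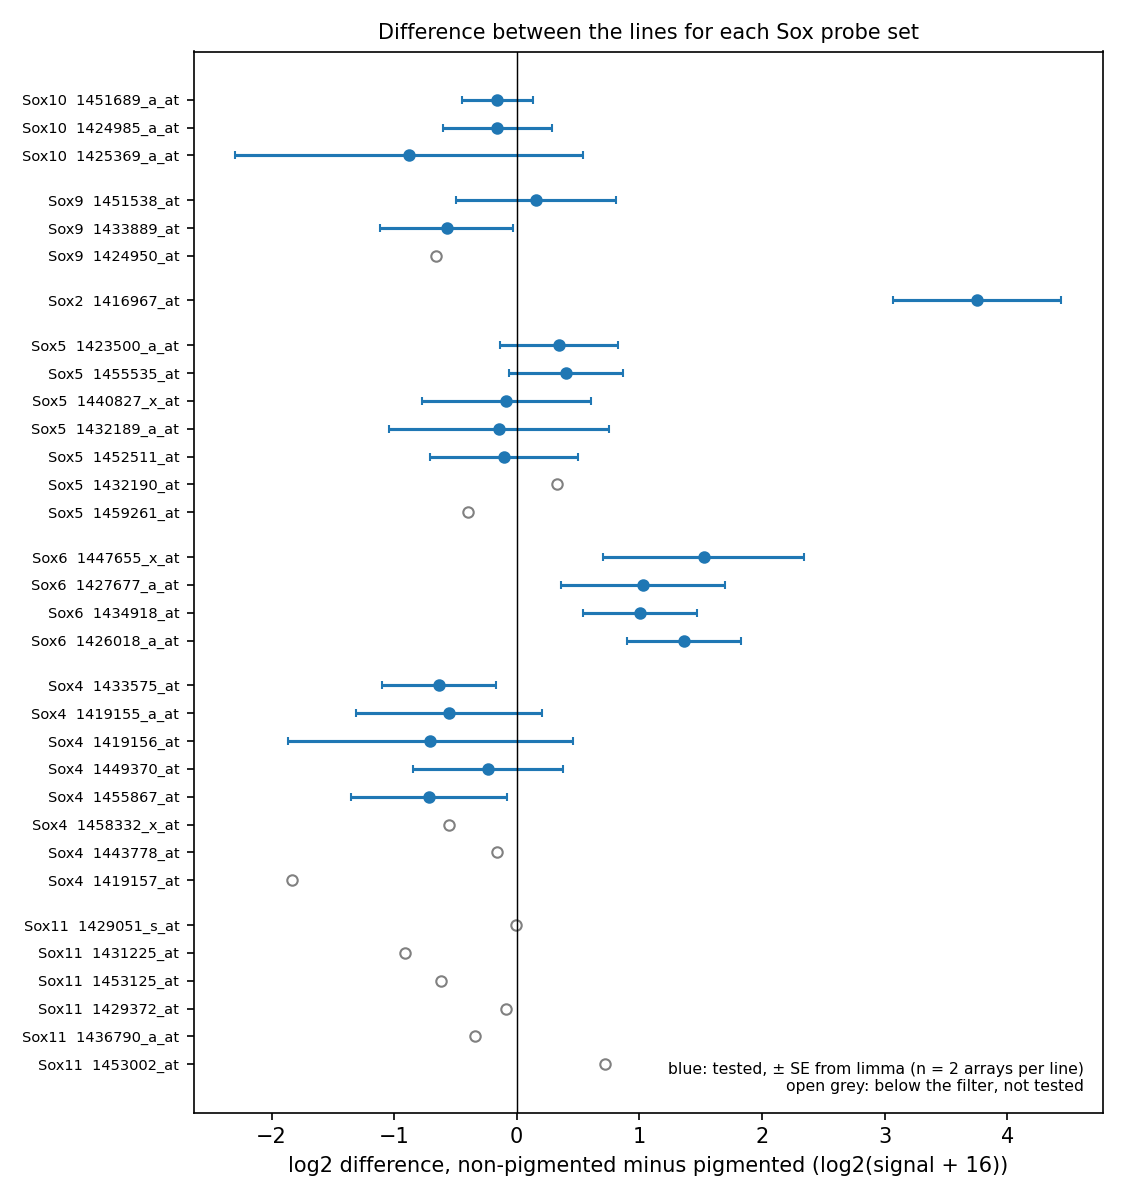
Log2 difference, non-pigmented minus pigmented, of each of the 32 Sox probe sets, with the brightest of each gene on top. Blue points are the 20 tested probe sets with the standard error from limma (n = 2 arrays per line), and open grey points are the 12 below the filter. Sox2 stands at 3.75, the 4 probe sets of Sox6 between 1.01 and 1.52, and the 8 of Sox4 below 0 at the deposited scaling (1 of them at 0.01 under median centring).

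Sox6, a SoxD factor that lacks a transactivation domain of its own, was higher in the non-pigmented line in 4 of 4 probe sets, by 1.01 to 1.52 on the log2 scale. None of the 4 was called by limma, and 1 had an unadjusted p under 0.05. Probe set 1434918_at read 1620 and 1242 in non-pigmented arrays and 598 and 813 in pigmented arrays, a difference of 1.01 ± 0.47 (limma adjusted p of 0.495). Probe set 1426018_a_at read 293 and 231 in non-pigmented arrays and 89.7 and 93.3 in pigmented arrays, a difference of 1.36 ± 0.46 (unadjusted p of 0.0263, limma adjusted p of 0.330). In both of these the lines did not overlap, as in 42.6% of all 27022 tested probe sets. Their 5′ signal differences were 0.03 ± 0.36 and -0.14 ± 0.42.

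The other 2 Sox6 probe sets differed along both the line and the 5′ signal. The brightest of the gene, 1447655_x_at, whose suffix marks probes that can also match other sequences, read 2191 and 6487 in non-pigmented arrays and 654 and 2577 in pigmented arrays. Within either line the array with low 5′ signal was the higher one, and within either 5′ signal pair the non-pigmented array was, by 1.72 between the arrays with even 5′ signal and 1.33 between the others. Probe set 1427677_a_at had the same pattern, at 1158 and 2817 in non-pigmented arrays and 559 and 1373 in pigmented arrays. The difference of the brightest probe set was 1.52 ± 0.80 in the fit over genes (limma adjusted p of 0.498, 95% interval -0.43 to 3.48), and 1.52 ± 0.27 once the 5′ signal pair was blocked, where the adjusted p was 0.0371 and 7.04% of all genes were called (4.32% higher and 2.72% lower). With the date as a block the adjusted p was 0.723, and the difference was -0.23 within one date and 3.28 within the other, and each date joins an array with even 5′ signal to one with low 5′ signal. Leaving out 1 array moved the value between 0.55 (without pigmented replicate 1) and 2.5 (without pigmented replicate 2), with no adjusted p under 0.05.

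Sox5, the other SoxD factor, known in mouse melanocytes as a brake on Sox10 at the Mitf and Dct promoters, had 7 probe sets, of which 5 were tested and none was called. Its brightest probe set, 1423500_a_at, read 520 and 348 in non-pigmented arrays and 365 and 302 in pigmented arrays, a difference of 0.34 ± 0.44 (limma adjusted p of 0.816, 95% interval -0.72 to 1.40). Probe set 1455535_at read 311 and 370 in non-pigmented arrays and 286 and 223 in pigmented arrays, a difference of 0.40 ± 0.46. Its lines did not overlap, as in 42.6% of all tested probe sets. The remaining 3 tested probe sets differed by -0.15 to -0.08, and all 3 were above 0 under median centring and quantile normalization. In these 3 the 5′ signal difference was larger than the line difference. Probe set 1432189_a_at read 572 and 107 in non-pigmented arrays and 484 and 161 in pigmented arrays. Probe set 1440827_x_at ran the opposite way over the same arrays, at 154 and 468 in non-pigmented arrays and 200 and 412 in pigmented arrays, with replicate 1 given first in each line. Their 5′ signal differences were -1.87 ± 0.41 and 1.25 ± 0.39.

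Sox4, a SoxC factor of progenitors that is also expressed in many adult tissues, was bright in both lines in its brightest probe set. The difference was negative in 8 of 8 probe sets, 5 of them tested and none called (1449370_at was at 0.01 under median centring). The others had means below the filter, where the order of the lines is not resolved. Over all tested probe sets the median difference was -0.155. The brightest, 1433575_at, read 4954 and 3480 in non-pigmented arrays and 4532 and 9193 in pigmented arrays, a difference of -0.63 ± 0.46 (limma adjusted p of 0.651, 95% interval -1.75 to 0.49). Pigmented replicate 2 alone was high, and the other 3 arrays overlapped. The same array was the highest in all 5 tested probe sets, for instance 2892 in 1419156_at, where the non-pigmented arrays read 311 and 917 and pigmented replicate 1 read 263. Without it the difference was -0.13 for the brightest probe set, and 0.51, 0.99 and 0.48 for 1419155_a_at, 1419156_at and 1449370_at. The fitted difference of arrays with low minus those with even 5′ signal was 0.26 to 2.45 on the log2 scale over the 5 tested probe sets. For the brightest it was 0.26 ± 0.38, its 5′ signal pairs overlapped, and non-pigmented replicate 2 was below replicate 1.

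Sox11, the other SoxC factor, was below the filter in all 6 probe sets, and no array read above 116 in any of them. The brightest, 1429051_s_at, read 75.3 and 31.3 in non-pigmented arrays and 45.0 and 55.7 in pigmented arrays. At these signals a difference between the lines was not detectable. With no filter its difference was -0.01 ± 0.61, and the 6 probe sets ranged from -0.91 to 0.72.

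Across the tested Sox probe sets, values separated by 5′ signal more often than by line. Probe sets of the same gene are not independent, and Sox4 (5), Sox5 (5) and Sox6 (4) gave most of those tested. In the brightest probe set of each tested gene, the lines did not overlap for Sox10 and Sox2. The 5′ signal pairs did not overlap for Sox5 and Sox6, so the excess was not seen by gene. The lines did not overlap in 6 of 20 tested probe sets, against 42.6% of all 27022. The 5′ signal pairs did not overlap in 12 of 20, against 43.3% of all. The 5′ signal difference was larger than the line difference in 13 of 20, against 50.3% of all probe sets. The median absolute difference was 0.56 for the line and 0.75 for the 5′ signal over the 20, against 0.49 and 0.52 over all. For the 5′ signal 7 of the 20 probe sets had an unadjusted p under 0.05 and 0 passed the limma adjustment, while 22.4% of all probe sets had such a p and 0 passed. The part of the 5′ signal split in the line differences was not tested beyond the blocked fits given here.

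**Figure D3:**
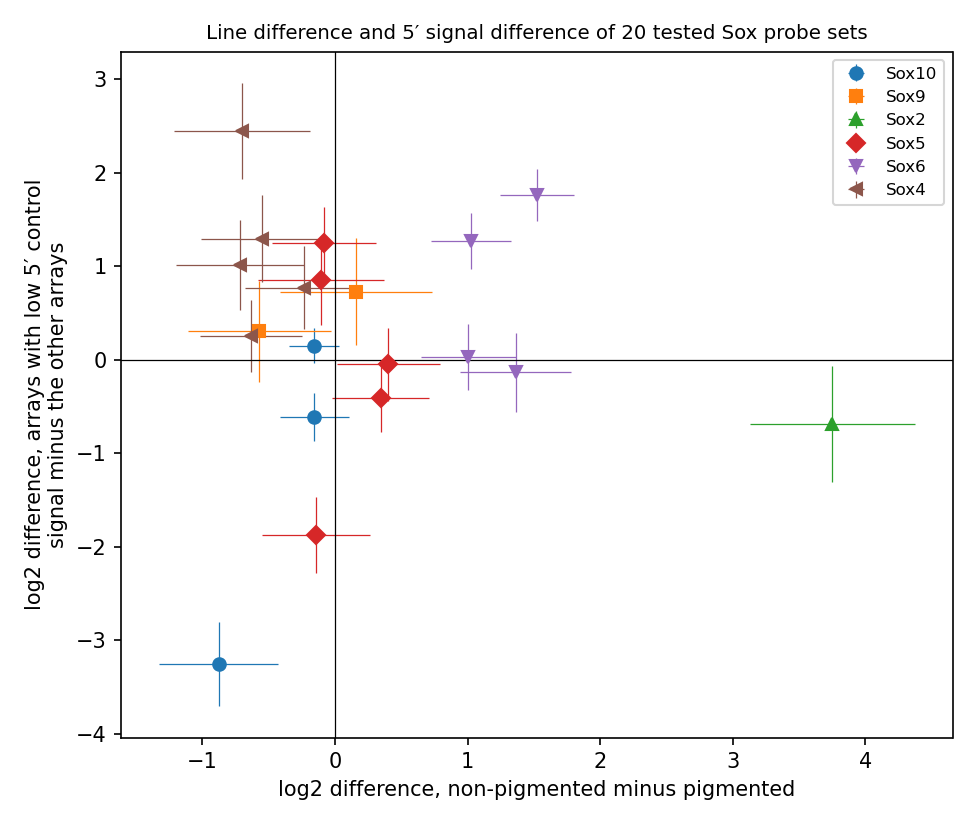
Each of the 20 tested Sox probe sets by its log2 difference between the lines (horizontal, non-pigmented minus pigmented) and between arrays with low and with even 5′ signal (vertical), with standard errors from a limma fit holding both terms. Sox2 lies far right with a 5′ signal difference of -0.69, Sox6 splits into a pair near 0 and a pair at 1.27 and 1.76 on the vertical axis, and 1 probe set each of Sox10 and Sox5 lies at -3.26 and -1.87.

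Genes that Sox factors are known to act on or with were counted in 7 lists and read against a median difference of -0.07 over all 12558 tested genes. The lists were chosen with earlier results of these data known, so their counts describe and do not test. Of all tested genes 2.03% were called higher in the non-pigmented line and 1.33% lower. With the 5′ signal pair blocked these shares were 4.32% and 2.72%. The filter keeps a gene that is bright in 1 line only, so signs and medians are given over all measured genes of a list, the dim ones included. Among 12 other Sox genes, 10 were too dim to be tested and neither of the 2 tested was called by limma (1 had an unadjusted p under 0.05). Sox12, the third SoxC gene, read 89.9 and 112 in non-pigmented arrays and 219 and 256 in pigmented arrays, a difference of -1.12 ± 0.42 (limma adjusted p of 0.312). Sox21 read 651 and 187 in non-pigmented arrays and 337 and 267 in pigmented arrays. Sox8, the remaining SoxE gene, did not exceed 37.4 on any array.

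Of 8 melanocyte genes that Sox10 is known to regulate directly or through Mitf, 7 were tested, 6 were lower in the non-pigmented line and 0 higher, and all 8 had a negative difference, with a median of -3.81. They were Mitf, Dct, Tyr, Pmel, Mlana and Ednrb. Dct, which acts after tyrosinase in melanin synthesis, read 1094 and 970 in non-pigmented arrays and 19395 and 20482 in pigmented arrays, with an adjusted p of 0.00585 by limma. Ednrb, the endothelin receptor gene required for melanocytes to develop from the crest, read 16.3 and 12.0 in non-pigmented arrays and 635 and 3706 in pigmented arrays. Ednrb passed the filter only through the pigmented arrays, so the size of its difference is not resolved. Tyrp1 read 1426 and 9313 in non-pigmented arrays and 14188 and 17548 in pigmented arrays and did not pass (adjusted p of 0.332). Sox10 itself read 8268 and 8558 on the same non-pigmented arrays. The count was also 6 when the date or the 5′ signal pair was blocked.

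Of 17 glial genes linked to Sox10, 12 were measured and 11 tested, and 4 were higher in the non-pigmented line, 0 lower. The 12 had 9 positive and 3 negative differences, with a median of 0.94. Mbp, a myelin protein gene, read 11562 and 3445 in non-pigmented arrays and 94.9 and 95 in pigmented arrays. S100b, a calcium-binding protein of Schwann cells, read 5759 and 13314 in non-pigmented arrays and 125 and 272 in pigmented arrays, and Pmp22 read 467 and 805 in non-pigmented arrays and 94.1 and 59.5 in pigmented arrays. Erbb3, the neuregulin receptor gene, read 6734 and 9412 in non-pigmented arrays and 1384 and 1915 in pigmented arrays, and missed the threshold under several settings. Its limma adjusted p was 0.112 with the date blocked, 0.405 as the mean of its probe sets, 0.0568 with no filter, 0.0542 without the intensity trend, and 0.130 and 0.274 without non-pigmented replicate 1 or 2. Genes of the same list that did not differ past the test included Egr2, the factor that partners Sox10 in myelination (1.11 ± 0.42), Cdh19 (0.59 ± 0.52) and Pou3f1 (-0.82 ± 0.82). The count was 2 without either non-pigmented array and 2 with no filter. Mbp, Pmp22, S100b and Cdh19 are also among the Schwann cell markers summed above.

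Among the cartilage genes that Sox9 switches on together with Sox5 and Sox6, 5 collagen or cartilage matrix genes were higher in the non-pigmented line. Of 19 listed genes, which include Sox5 and Sox6 themselves, 12 were tested, 5 were called higher and 0 lower. The 19 had 16 positive and 3 negative differences (Mia, Matn1 and Comp), with a median of 1.52. Cnmd, Col2a1 and Col11a2 passed the filter only through the non-pigmented arrays, and the size of their differences is not resolved. Cnmd, which encodes the cartilage protein chondromodulin, read 660 and 1739 in non-pigmented arrays and 3.92 and 2.85 in pigmented arrays, a fitted difference of 5.81 ± 0.57 (limma adjusted p of 0.00719). Col9a1, a chain of a collagen that decorates cartilage fibrils, read 1633 and 5545 in non-pigmented arrays and 154 and 109 in pigmented arrays (4.38 ± 0.65, adjusted p of 0.0240 by limma). Col27a1, a fibrillar collagen of cartilage, read 3704 and 9943 in non-pigmented arrays and 89.2 and 378 in pigmented arrays (4.90 ± 0.79, adjusted p of 0.0297). Col2a1 (10366 and 6147 in non-pigmented arrays, 12.1 and 169 in pigmented arrays) and Col11a1 (4607 and 3510 in non-pigmented arrays, 113 and 65.8 in pigmented arrays) were the other 2.

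The rest of the cartilage list did not follow at the same size. Acan, the main cartilage proteoglycan gene, read 120 and 180 in non-pigmented arrays and 98.7 and 114 in pigmented arrays, a difference of 0.42 ± 0.45. Fgfr3, a growth factor receptor gene of chondrocytes, read 957 and 908 in non-pigmented arrays and 102 and 222 in pigmented arrays, just outside the threshold (2.51 ± 0.49, limma adjusted p of 0.0580). Comp, Matn1, Matn3, Matn4 and Hapln1 had means over the 4 arrays below the filter and were not tested. Blocking the 5′ signal pair gave 8 called genes, Sox6 among them, and without non-pigmented replicate 2 the count was 4, since Col27a1 then missed the threshold (adjusted p of 0.0609). Of the 6 chondrocyte markers summed above, which all stand in this list, Matn1 and Hapln1 were below the filter. Sox9 read no more than 103 in the same non-pigmented arrays.

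Among 18 neural crest and melanocyte factors, 16 were tested, 1 was higher and 1 lower in the non-pigmented line. The 18 had 9 positive and 9 negative differences, with a median of -0.02. Tfap2b, an AP-2 factor of the neural crest, read 1366 and 3654 in non-pigmented arrays and 145 and 51.9 in pigmented arrays, and was not called without non-pigmented replicate 2 (adjusted p of 0.0514). Mitf read 796 and 1576 in non-pigmented arrays and 13405 and 10158 in pigmented arrays. Pax3, the paired-box factor that acts with Sox10 on Mitf, read 1205 and 1877 in non-pigmented arrays and 2573 and 4569 in pigmented arrays, a difference of -1.18 ± 0.48 (limma adjusted p of 0.355). Lef1, a Wnt pathway factor, read 4403 and 2577 in non-pigmented arrays and 742 and 583 in pigmented arrays (2.33 ± 0.46, limma adjusted p of 0.0592). Tfap2a read 929 and 985 in non-pigmented arrays and 2935 and 3650 in pigmented arrays (-1.76 ± 0.40, limma adjusted p of 0.0908). Foxd3, a crest factor that holds back Mitf in chick and zebrafish, read 97.8 and 241 in non-pigmented arrays and 661 and 634 in pigmented arrays and did not pass.

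Of 18 progenitor genes linked to Sox2, 9 were tested, 1 was higher in the non-pigmented line and 0 lower. The 18 had 7 positive and 11 negative differences, with a median of -0.07. Nes, the nestin gene of neural progenitors, read 1881 and 3528 in non-pigmented arrays and 43.3 and 71.6 in pigmented arrays, in the brightest of its probe sets, and did not pass as the mean of its probe sets (adjusted p of 0.0825). Its mean passed the filter only through the non-pigmented arrays, so the size of its difference is not resolved. Klf4 (3003 and 1850 in non-pigmented arrays, 609 and 280 in pigmented arrays), a factor used with Sox2 in reprogramming, and Hes1 (673 and 669 in non-pigmented arrays, 207 and 127 in pigmented arrays), a Notch effector gene, did not pass, at adjusted p-values of 0.0825 and 0.0880 by limma. The pluripotency genes Pou5f1, Nanog, Lin28a, Utf1 and Sall4 were below the filter. Blocking the 5′ signal pair gave 4 called genes, Nes, Klf4, Hes1 and Gfap, and leaving out pigmented replicate 1 also gave 4.

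Of 12 neuronal genes linked to the SoxC factors, 6 were tested and 0 were called by limma (2 at an unadjusted p under 0.05, and 2 called once the 5′ signal pair was blocked). The 12 had 8 positive and 4 negative differences, with a median of 0.78. Tead2, a direct SoxC target, read 864 and 278 in non-pigmented arrays and 89.5 and 32.6 in pigmented arrays (2.83 ± 0.69, adjusted p of 0.106). Its mean in the pigmented line was below the filter. Tubb3, the neuronal tubulin gene, read 946 and 461 in non-pigmented arrays and 502 and 149 in pigmented arrays, and Stmn1 read 10451 and 6319 in non-pigmented arrays and 8866 and 1015 in pigmented arrays. Map2 read 1602 and 2303 in non-pigmented arrays and 601 and 478 in pigmented arrays (1.81 ± 0.44, limma adjusted p of 0.107). In Tead2, Tubb3, Stmn1 and Neurod1 the array with low 5′ signal was the lower one in either line. In Mapt it was the higher one in either line, and in Map2 it was higher in the non-pigmented line only. Stmn2 was below the filter by its mean, at 40.7 and 12.5 in non-pigmented arrays and 159 and 108 in pigmented arrays. Dcx, Elavl3 and Elavl4 were also below it, so 4 of the 5 neuron markers were not tested.

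**Figure D4:**
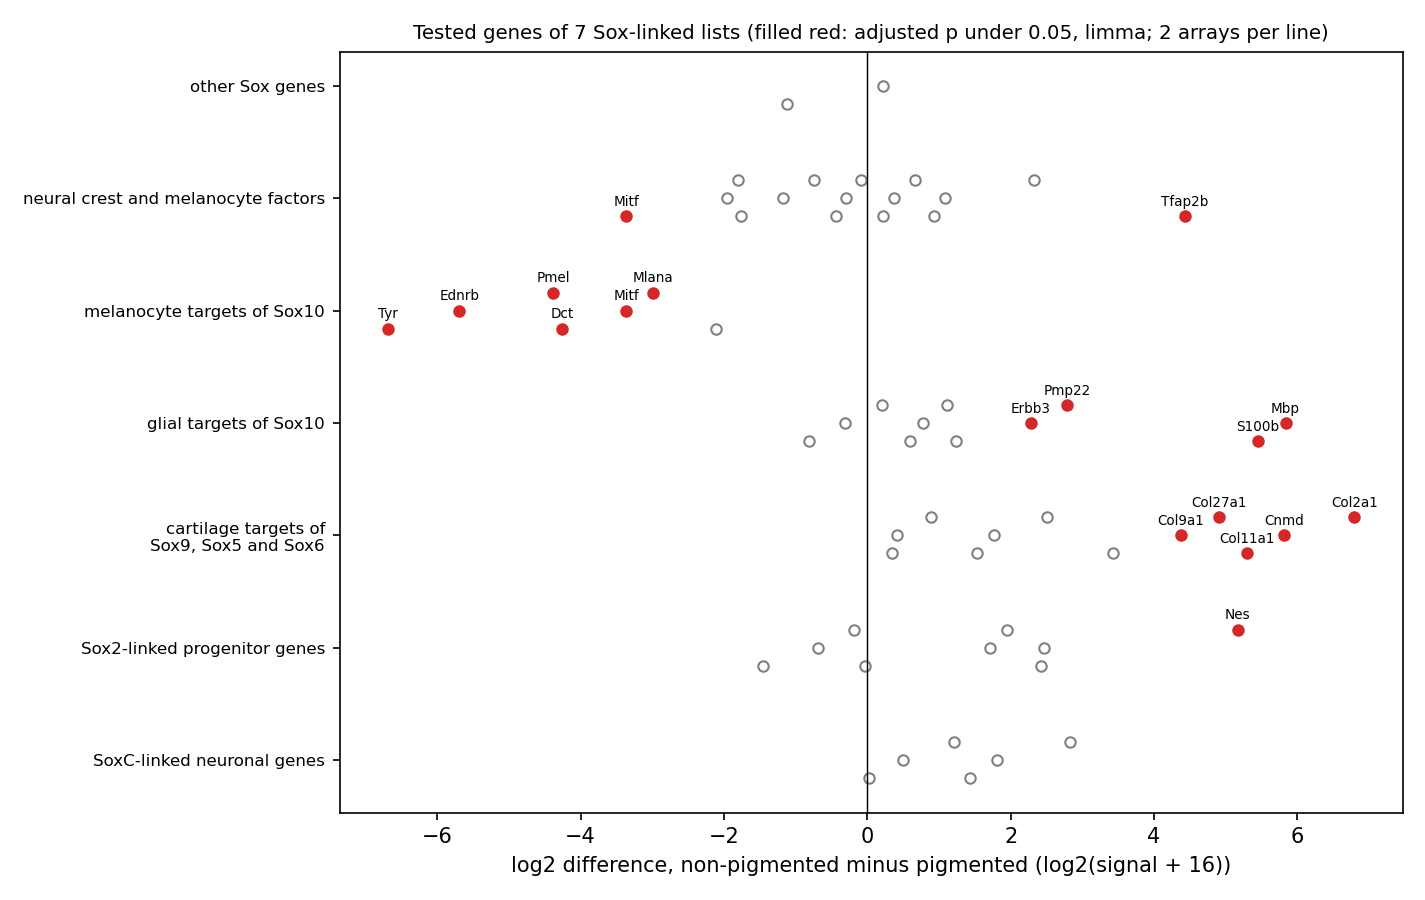
Log2 difference, non-pigmented minus pigmented, of each tested gene in the 7 lists, with filled red points called by limma at an adjusted p under 0.05 (n = 2 arrays per line). Genes too dim to be tested are not drawn, among them 3 cartilage and 4 SoxC-linked genes with negative differences. The melanocyte targets of Sox10 lie left of 0, the called cartilage genes lie right of 0, and the glial and progenitor lists are spread on both sides with their called genes on the right.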

How the data were processed

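The series was a single table of 1-colour Affymetrix probe set intensities for 4 arrays. Per the submitters' processing notes the deposited intensity values were made with Affymetrix Expression Console; its version and the summary algorithm are not given in the sources used here. Each column had a mean of 500 after trimming 2% at either end, so the authors had scaled the arrays. There is no detection column.

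Here 64 control probe sets were left out, genes were named from the platform annotation (34741 of 34945 single-symbol probe sets matched RefSeq, 0 symbols changed), and log2(signal + 16) was fitted with limma 3.58.1 in R 4.3.3 (intensity trend, Benjamini-Hochberg adjustment), over 12558 genes and again over 27022 probe sets above the 40th percentile. Figures used matplotlib 3.10.9. The members and lists were chosen with earlier results of these data known.

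The rule for named genes took all 7 Sox genes, Tyr, up to 6 called genes of each list (up to 4 of smallest p otherwise) and the 3 genes most like each called Sox gene. It also took listed genes too dim to be tested. Egr2, Cdh19, Pou3f1, Fgfr3, Pax3, Foxd3, Tyrp1, Mapt and Neurod1 fall outside it and were picked with values known. There are 2 dates in the titles, each with 1 array of either line. Deviations of same-date arrays from their line means correlated at -0.52, and those of arrays with a like 5′ control signal at 0.52. With 2 arrays per line these values are equal and opposite by construction, so only the sign is free. By that sign, deviations were shared more by arrays with a like 5′ signal than by arrays of the same date. The values cannot give the sizes of a date effect and a 5′ signal effect apart. Alternatives were the date or the 5′ signal pair (arrays with a Gapdh 3′ to 5′ ratio over 3 against the others) as a block, quantile normalization, median centring, other filters, pseudocounts and variance models, other ways to join probe sets, and leaving out each array, with the remaining array of that line taken to vary like those of the other. The small number of arrays, 4, limits the precision. On simulated data (20 runs, 200 changed features) the comparison of 12558 genes recovered 4.18%, 79.4% and 95.5% of log2 changes of 2, 4 and 6, with 3.88% false calls, and that of 27022 probe sets 0.149%, 29.6% and 81.7%, with 3.97%. The simulated noise was independent between features and held no shared 5′ signal split, so these rates need not hold for the real arrays.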

Additional observations from a re-analysis of the deposited data

How the results depend on the processing

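With 2 arrays per line, changes near a log2 size of 2 were mostly missed in the simulated data, and signals under about 70.7 give no order of levels. The genes called numbered 422 in all, 884 after blocking the 5′ signal pair, and 234 (without non-pigmented replicate 2) to 772 (without pigmented replicate 1) when single arrays were left out. The probe sets called numbered 402, 1255 with the 5′ signal pair as a block, 251 with no filter, and 170 to 765 without the same arrays. Of the Sox genes 1 was called (Sox2), 2 with the 5′ signal pair as a block (Sox2 and Sox6), 0 with no filter, 0 with a filter at the 60th percentile (Sox2 was then not tested) and 0 with a pseudocount of 1, and 0 (without either non-pigmented array) to 1 without single arrays. Of the Sox probe sets 0 were called, 1 with the date as a replicate block (Sox2), 2 with the 5′ signal pair as a block, 1 with a pseudocount of 64 and 0 to 1 without single arrays (1 without pigmented replicate 1). The date block changed the call of Erbb3 and of the Sox2 probe set among the results named here.

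Median centring moved the median difference of all genes to 0.18, against -0.07, and quantile normalization to 0.01, and differences are to be read relative to that. Under median centring Sox10 turned to 0.087 in the gene fit and in 1451689_a_at and 1424985_a_at, and 1449370_at of Sox4 to 0.008. The Sox5 probe sets 1432189_a_at, 1440827_x_at and 1452511_at turned to 0.099, 0.16 and 0.141 under median centring, and to 0.004, 0.093 and 0.179 under quantile normalization. Other reversals came from leaving out 1 array, over which the differences ranged as follows. Sox10 probe sets ranged from -0.587 to 0.272 (1424985_a_at) and from -2.754 to 1.0 (1425369_a_at). Sox9 ranged from -0.613 to 0.928 (gene and 1451538_at). Sox4 probe sets ranged from -1.614 to 0.514 (1419155_a_at), from -2.396 to 0.988 (1419156_at) and from -0.955 to 0.482 (1449370_at). Sox5 probe sets ranged from -1.272 to 0.982 (1432189_a_at), from -0.837 to 0.668 (1440827_x_at) and from -0.723 to 0.516 (1452511_at). Sox21 ranged from -0.642 to 1.077 and Stmn1 from -0.125 to 2.981. No reversed value had an adjusted p under 0.05 by limma. The cause was not tested.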
